A study of Mus musculus with 11 samples.

Results

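*Shh* and 7 genes that surround it on mouse chromosome 5, *Insig1*, *Rbm33*, *Rnf32*, *Lmbr1*, *Nom1*, *Ube3c* and *Dnajb6*, were followed through 11 RNA-sequencing libraries of maxillary molar tooth germs at E14.5. The 8 genes were chosen by symbol for their position around *Shh* and its long-range enhancers, and all 8 have a row among the 16755 genes of the deposited table. The wild-type group had 4 libraries and the *Cilk1*-/- group, with exon 6 of *Cilk1* deleted in the germline through EIIa-Cre, had 4. The compound mutant, *Cilk1*-/-;PCS1–MRCS1△/△, had 3 libraries and carries the same *Cilk1* deletion together with a homozygous 70 kb deletion from PCS1 to MRCS1. Mice were on a C57BL/6 background, the controls were littermates, and each replicate held n = 6, where it is not stated whether 6 counts tooth germs or embryos. The enhancer deletion without the *Cilk1* deletion is not among these libraries, so the compound mutant set against *Cilk1*-/- is the comparison in which the enhancer deletion is the labelled difference.

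Sonic hedgehog, the protein made from *Shh*, is a secreted ligand. It binds the receptor Patched1, which frees Smoothened to act through the primary cilium on the Gli transcription factors, and Cilk1 is a kinase of that cilium. In the developing molar, *Shh* is transcribed by the dental epithelium and most strongly by the enamel knot, the signaling centre of the cap stage. Enhancers spread over the long gene-poor stretch upstream of *Shh*, and within introns of genes beyond it, drive its transcription in different tissues. The best known is the limb enhancer in an intron of *Lmbr1*, while MRCS1 and PCS1 act in oral epithelia.

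No difference of *Shh* between genotypes exceeded the spread between libraries, and the 3 compound mutant libraries fell on both sides of all the others. *Rnf32* was the one gene of the 8 that rose past the threshold, in the compound mutant against wild type, and that call was lost under several of the other fits. *Insig1* lay slightly below its wild-type level in both mutants, by less than the fold required for a call. The other 5 genes, *Rbm33*, *Lmbr1*, *Nom1*, *Ube3c* and *Dnajb6*, had genotype means within 0.17 of each other on the log2 scale.

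All values below are the deposited log2 values, probably of FPKM with 1 added, so genes are compared per length of transcript, and depth per library is unknown. Calls required both an adjusted p under 0.05 (limma, Benjamini-Hochberg over all genes) and a fold of 1.5 or more. *Cilk1* itself, listed under its older symbol *Ick*, checked the labels and lay between 3.45 and 3.60 in wild type, between 2.72 and 2.86 in *Cilk1*-/- and between 2.60 and 2.67 in the compound mutant. The coordinates of the PCS1 to MRCS1 deletion are not given in the sources used here, so whether it touches a listed gene, and with that a check of its label, was not determined. Compound mutant replicate 1 stood apart on the first principal component, at 48.53 against −11.18 to 6.63 in the other libraries, and its means over 4 cartilage and 7 neuronal markers were 5.83 and 3.84 against highs of 2.52 and 1.94 in the others. Compound mutant replicate 3 stood apart on the second, at −28.90 against −11.84 to 13.49, and its mean over 5 erythroid markers was 1.14 against 2.47 to 3.83. A wild-type library and the *Cilk1*-/- library that bears its replicate number deviated oppositely from their genotype means, with correlations over all genes between −0.89 and −0.74. No step that would tie the libraries of a number together is stated in the sources used here, so tests that take these libraries as independent are given with the replicate block where it matters. The numbering of the sample records sets wild-type replicate 4, *Cilk1*-/- replicate 4 and all compound mutant libraries apart from the rest. This split, called the label set below, is inferred and is not named as a batch in the sample titles. It and the compound genotype can be told apart only through the replicates numbered 4.

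*Shh* lies on the minus strand at chr5:28456815-28467256 (GRCm38, GENCODE vM21). Its level was 4.76, 4.93, 5.18 and 4.18 in wild-type replicates 1 to 4. It was 4.79, 5.0, 4.93 and 5.66 in *Cilk1*-/- replicates 1 to 4, and 3.66, 4.02 and 6.51 in compound mutant replicates 1 to 3. The lowest, the second lowest and the highest level of all 11 libraries were therefore all in compound mutants, and every pair of genotypes overlapped. Turned back from the log2 scale, compound mutant replicate 3 held 7.77 times the *Shh* level of replicate 1, whereas the highest library exceeded the lowest 2.06 times in wild type and 1.85 times in *Cilk1*-/-.

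**Figure D1:**
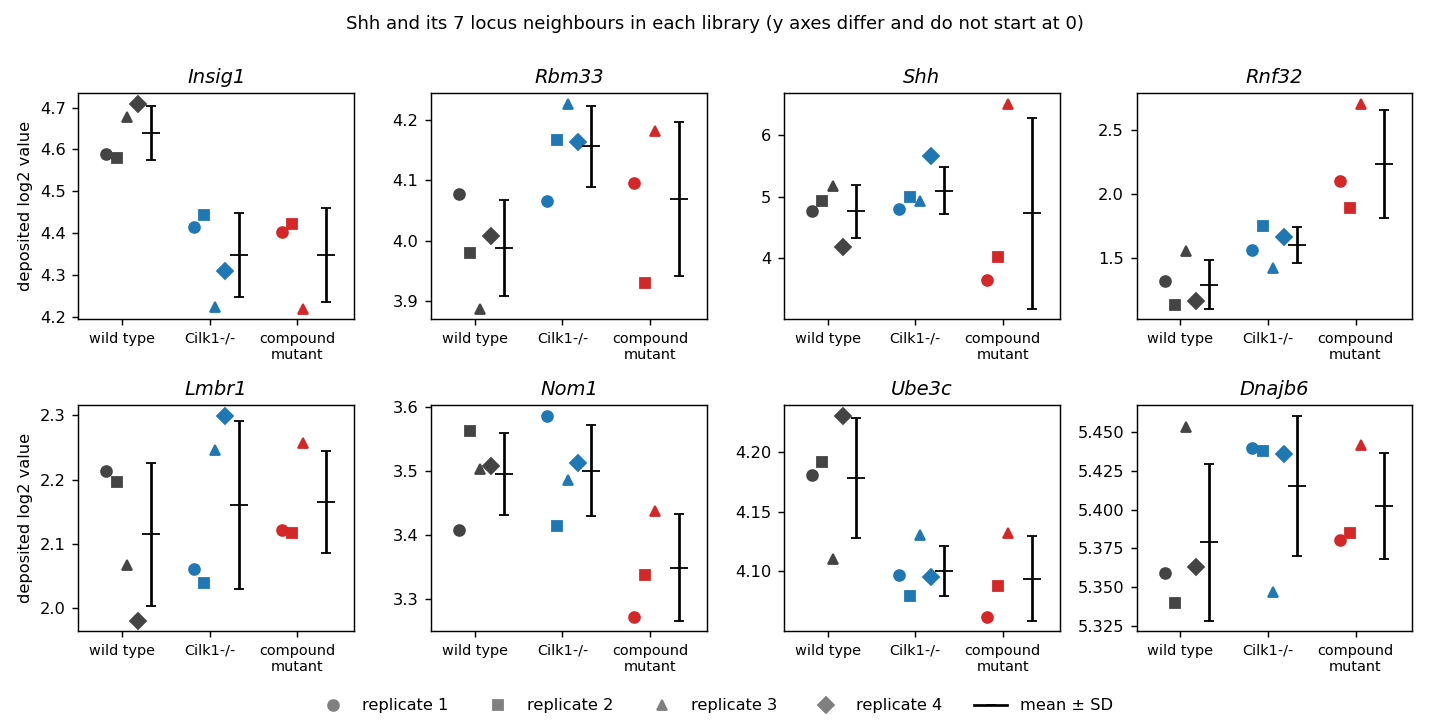
Each panel plots the deposited log2 value of a gene (y axis, own scale for each gene) in every library, by genotype (x axis). Symbols mark the replicate number and bars the mean ± SD. *Shh* in the compound mutant spans 3.66 to 6.51, *Rnf32* in the compound mutant lies above every other library, and *Insig1* in both mutants lies below every wild-type library.

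*Shh* averaged 4.76 ± 0.426 (SD, n = 4) over the wild-type libraries. The *Cilk1*-/- libraries averaged 5.10 ± 0.383 (SD, n = 4) and those of the compound mutant 4.73 ± 1.55 (SD, n = 3). The log2 fold change was 0.33 (standard error 0.526, 95% interval −0.83 to 1.5, adjusted p = 0.775, limma) in *Cilk1*-/- against wild type. For the compound mutant it was −0.03 against wild type (standard error 0.568, 95% interval −1.29 to 1.23, adjusted p = 0.982, limma). Against *Cilk1*-/- it was −0.37 (standard error 0.568, 95% interval −1.62 to 0.89, adjusted p = 0.738, limma). The intervals of both compound mutant comparisons reach more than 1 log2 unit below 0, so a reduction of *Shh* by more than that size is within them. Exact two-sided permutation tests over libraries gave p = 0.343, 0.971 and 0.686 for the same 3 comparisons (0.971 for each after adjustment over the 3), and the smallest p that 4 against 4 and 3 against 4 libraries can give is 0.0286. Neither these tests nor those on marker means below allow for the opposed deviations of same-numbered wild-type and *Cilk1*-/- libraries. With the replicate block, *Shh* in *Cilk1*-/- against wild type had an adjusted p of 0.811 (limma).

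One library decided the compound mutant value. With compound mutant replicate 3 left out, the log2 fold change of *Shh* was −1.26 against *Cilk1*-/- (standard error 0.287, adjusted p = 0.0262, limma), which passes the call, and −0.92 against wild type (adjusted p = 0.0725, limma). With replicate 1 left out it was 0.17 against *Cilk1*-/- and 0.51 against wild type, so the sign of the difference also rests on which library is counted. Replicate 3 is the library with the most *Shh* of its group and the one apart on the second component, and leaving it out is 1 of the 11 single omissions computed. Within the label set that holds the compound mutant, *Shh* was 4.18 in wild-type replicate 4 and 5.66 in *Cilk1*-/- replicate 4. Compound mutant replicates 1 and 2 lay below both while replicate 3 lay above both.

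The spread of *Shh* was wide in each genotype, not in the compound mutant alone. Its SD exceeded that of 99.6% of all genes in the compound mutant, 99.4% in wild type and 99.3% in *Cilk1*-/-. In the last 2 groups the spread came with the opposed deviations of same-numbered libraries. Wild-type replicate 4 had the lowest *Shh* of its group and *Cilk1*-/- replicate 4 the highest of its own. The mean of the 2 libraries of a number ran only from 4.78 to 5.06, a range of 0.277, against 1.0 within wild type and 0.863 within *Cilk1*-/-. For all 8 genes the means of same-numbered libraries ranged less than either genotype did, as they did for 95.8% of all genes.

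*Shh* RNA comes from the epithelium of the germ, so its level was set beside 12 genes of dental and oral epithelium and 14 of the enamel knot in the same library, all of them listed. In bulk tissue, fewer cells of a type and less RNA per cell cannot be told apart. The mean level of the epithelial genes ran from 5.83 to 6.00 in wild type and from 5.80 to 6.07 in *Cilk1*-/-, and was 5.40, 5.67 and 6.00 in compound mutant replicates 1 to 3. None of the 12 was at or near 0 in any library, the lowest being *Grhl3*, a keratinocyte transcription factor, at 2.25 in compound mutant replicate 1. The enamel knot genes averaged 2.63 to 3.04 in wild type and 2.75 to 3.05 in *Cilk1*-/-, and 2.57, 2.89 and 3.60 in the compound mutant, with *Slit1* at 0.56 in wild-type replicate 4 as the lowest single value. Both means thus ran from low to high in the same order of compound mutant libraries as *Shh* did. Of their members, 6 of 12 and 9 of 14 did so, while *Epcam*, an adhesion molecule of epithelia, was highest in replicate 1, at 6.36 against 5.76 in replicate 3. The lists were not uniform in this, and some members differed between genotypes (limma). *Krt15* was called higher in *Cilk1*-/- against wild type and lower in the compound mutant against *Cilk1*-/-, where 0.37% and 0.543% of all genes were called. *Bmp2* and *Cdkn1a* were called higher in the compound mutant against wild type, where 1.25% were called. The part of the lists in the *Shh* level was not tested beyond the differences that follow.

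Relative to the epithelial mean, *Shh* was −1.07, −0.99, −0.82 and −1.67 on the log2 scale in wild-type replicates 1 to 4. The same difference was −1.01, −1.03, −1.14 and −0.40 in *Cilk1*-/- replicates 1 to 4 and −1.75, −1.64 and 0.51 in compound mutant replicates 1 to 3. The lowest and the highest value were again those of compound mutant libraries, with wild-type replicate 4 between compound mutant replicates 1 and 2, and the genotypes overlapped after this step too. Exact permutation tests gave p = 0.486 for *Cilk1*-/- against wild type, 0.914 for the compound mutant against wild type and 1 for the compound mutant against *Cilk1*-/-, or 1 for each after adjustment over the 3. Set against the enamel knot mean, *Shh* was 1.08, 1.13 and 2.91 above it in the compound mutant, 1.54 to 2.21 in wild type and 1.97 to 2.60 in *Cilk1*-/-, with exact permutation p between 0.4 and 0.657.

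**Figure D2:**
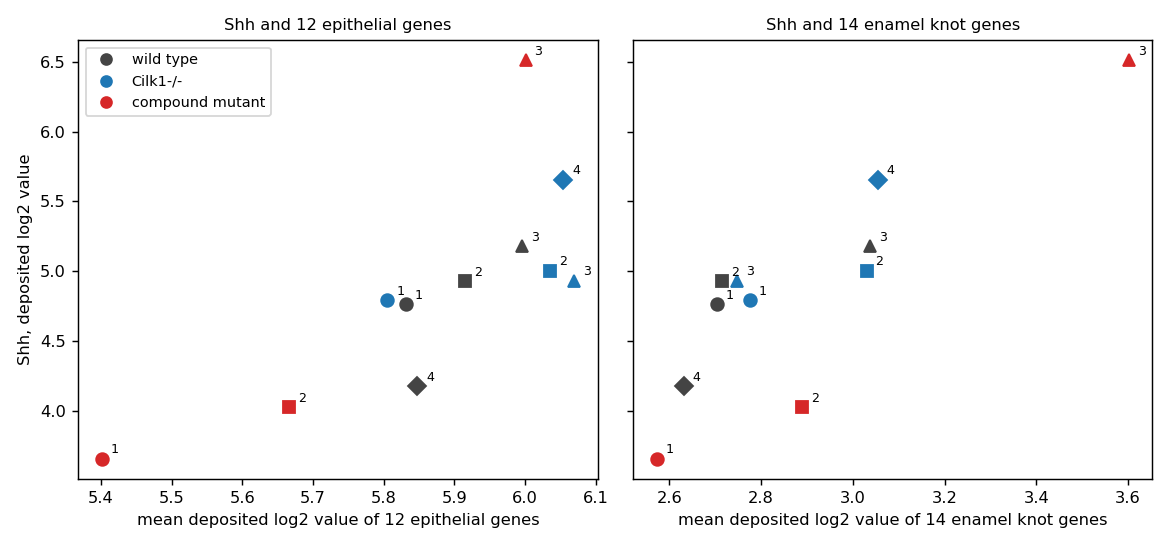
The deposited log2 value of *Shh* (y axis) is plotted against the mean log2 value of 12 epithelial genes (left, x axis) and of 14 enamel knot genes (right, x axis), with 1 point per library labelled by replicate number and coloured by genotype. Compound mutant replicates 1 and 2 are the 2 lowest points in both panels and replicate 3 is the highest, at 6.51.

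Genes that followed *Shh* across the libraries were sought among 2580 genes with a mean of at least 1 and an SD of at least 0.2. The highest Pearson correlations with *Shh* over 11 libraries were those of *Krt16* (0.988), *Lypd3* (0.971), *Abca9* (0.969), *Vwde* (0.965) and *Chmp4c* (0.964), with Spearman coefficients from 0.836 to 0.982. *Krt16*, a keratin of stratified epithelia, was at 0.51, 0.61 and 2.50 in compound mutant replicates 1 to 3, 0.58 to 1.48 in wild type and 1.25 to 1.97 in *Cilk1*-/-. As with *Shh*, wild-type replicate 4 was the lowest wild-type library and *Cilk1*-/- replicate 4 the highest *Cilk1*-/- library. Without compound mutant replicate 1, the library with the least *Shh*, the 5 highest over 10 libraries were *Vwde*, *Krt16*, *Scel*, *Igfbpl1* and *Itga1*, of which *Krt16* and *Vwde* are shared with the first 5. These correlations describe libraries that share dissection, replicate number and label set, and carry no test.

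**Figure D3:**
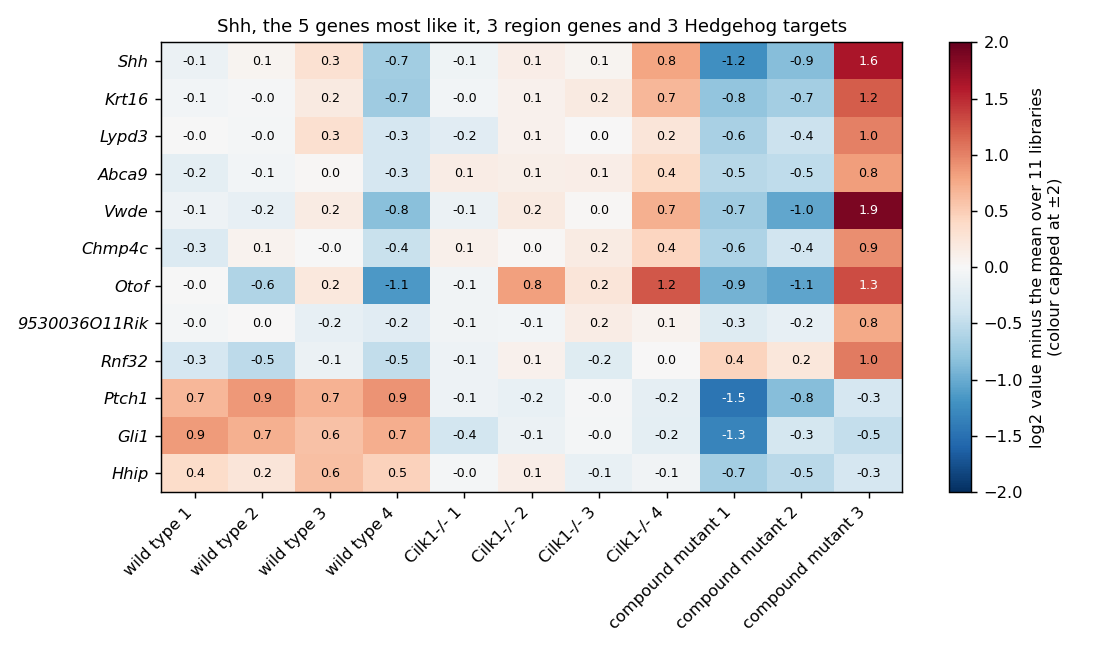
Rows are *Shh*, the 5 genes most correlated with it, 3 genes of the region and 3 Hedgehog targets, and columns are the 11 libraries. Colour and number give the log2 value minus the gene's mean over the libraries, with colour capped at ±2. *Shh* and the 5 genes below it are low in compound mutant replicates 1 and 2 and high in replicate 3, whereas *Ptch1*, *Gli1* and *Hhip* are below their mean in all 3.

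The targets that report reception of the ligand did not follow *Shh* in compound mutant replicate 3. *Ptch1*, which encodes the receptor and is itself a Hedgehog target, was at 3.82, 4.45 and 4.95 in compound mutant replicates 1 to 3, 5.11 to 5.26 in *Cilk1*-/- and 5.96 to 6.18 in wild type. *Gli1*, a transcription factor and target, was at 4.51, 5.48 and 5.36 in the compound mutant, 5.46 to 5.79 in *Cilk1*-/- and 6.42 to 6.68 in wild type. Replicate 3, with the highest *Shh* of all libraries, thus had less *Ptch1* and less *Gli1* than any library of the other genotypes. The other ligands were low: *Ihh* lay between 0.30 and 1.02 and *Dhh* between 0.19 and 0.79 over the 11 libraries, below the lowest *Shh* value of 3.66.

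Other genes of the pathway were counted by role. Of 11 listed genes for ligands and their release, which include *Ihh*, *Dhh*, *Disp1*, *Scube2* and *Gpc3*, 0 were called in any of the 3 comparisons, and 2, 4 and 2 had an unadjusted p under 0.05 in *Cilk1*-/- against wild type, the compound mutant against wild type and the compound mutant against *Cilk1*-/- (limma). The shares of all genes at that unadjusted threshold were 20.7%, 26.7% and 23.2%, which every such count below is to be read against. Of 13 receptors and transducers, *Ptch1* and *Gli1* fell in *Cilk1*-/- against wild type, where 0.37% of all genes were called and 0.215% were called lower. *Ptch1*, *Gli1* and *Hhip*, a membrane protein that binds the ligand, fell in the compound mutant against wild type, where 1.25% of all genes were called and 0.633% were called lower. None of the 13 was called between the compound mutant and *Cilk1*-/-, where 0.543% of all genes were called. In that comparison 12 of the 13 were lower in the compound mutant and 1 was higher. Their median log2 fold change was −0.19 against 0.00 for all genes, with *Ptch1* at −0.77 (adjusted p = 0.0606, limma) and *Hhip* at −0.49 (adjusted p = 0.0405, limma). There 6 of the 13 had an unadjusted p under 0.05 (limma), beside 23.2% of all genes, and 1 had an adjusted p under 0.05 there at any fold, as did 3.33% of all genes. Of 15 listed factors known to act on *Shh* or its enhancers in oral epithelium or limb, *Sp6* and *Lef1* among them, 0 were called in any comparison and 2, 2 and 5 had an unadjusted p under 0.05 (limma, beside 20.7%, 26.7% and 23.2% of all genes), with median log2 fold changes of 0.09, 0.06 and −0.02 in the order above, against 0.00 for all genes in each. Over the 3 lists together, the calls in *Cilk1*-/- against wild type numbered 0 with the replicate number as a block, and 0 on leaving out any one wild-type or *Cilk1*-/- library. The calls in the compound mutant against wild type numbered 3 with that block and 0 with the label set as a term. They numbered 1 with only the 2 genotypes in the fit. A block that placed the compound mutant with the libraries numbered 4, chosen after seeing the data, gave 0.

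*Rnf32*, which encodes a RING finger protein, starts 728.7 kb upstream of *Shh*, at chr5:29195992-29228457 on the plus strand. It was at 1.32, 1.14, 1.55 and 1.17 in wild-type replicates 1 to 4. It was at 1.56, 1.75, 1.42 and 1.67 in *Cilk1*-/- replicates 1 to 4 and at 2.10, 1.90 and 2.71 in compound mutant replicates 1 to 3. All 3 compound mutant libraries lay above all 8 others, while wild type and *Cilk1*-/- overlapped. Libraries did not overlap in this direction for 8.92% of all genes against wild type and 7.74% against *Cilk1*-/-.

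The log2 fold change of *Rnf32* in the compound mutant against wild type was 0.94 (standard error 0.177, 95% interval 0.55 to 1.33, adjusted p = 0.0177, limma), from 1.29 ± 0.190 (SD, n = 4) to 2.24 ± 0.422 (SD, n = 3). It was the single gene of the 8 called in this comparison, in which 0.615% of all genes were called higher. Since the added 1 compresses low values, the ratio of mean levels off the log scale was larger, at 2.62. Against *Cilk1*-/- the log2 fold change was 0.64 (standard error 0.177, adjusted p = 0.0739, limma), and *Cilk1*-/- against wild type gave 0.31 (adjusted p = 0.320, limma), neither of which was called. With the replicate number as a block, the compound mutant value was 0.93 and its adjusted p rose to 0.105 (limma). With the label set as a term it was 0.97 (adjusted p = 0.161, limma), and with the 2 genotypes alone in the fit 0.94 (adjusted p = 0.0960, limma). Without wild-type replicate 2 or 4 it was 0.89 or 0.90 (adjusted p = 0.0538 and 0.0614, limma). The call thus depended on these choices, while the size stayed between 0.89 and 0.97. With 0.1 added in place of 1, the value was 1.29 (adjusted p = 0.0145, limma). Of the libraries that stood apart, leaving out compound mutant replicate 1 gave 1.01 (adjusted p = 0.0258, limma) and leaving out replicate 3, with the highest *Rnf32*, gave 0.71 (adjusted p = 0.0166, limma). The mean over 6 skeletal muscle markers, all listed, was also apart in the compound mutant, at 0.82 to 0.99 against 1.16 to 2.17 in wild type and 1.72 to 2.83 in *Cilk1*-/-, and its part in the *Rnf32* difference was not tested.

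The sequences before the *Rnf32* start, before the start of its neighbour *Lmbr1* and before the start of *Insig1* are shown, because *Rnf32* and *Insig1* are the 2 genes of the 8 with an adjusted p under 0.05 and *Lmbr1* adjoins *Rnf32*. They are taken from RefSeq on GRCm38.p6, 5′ to 3′ on the strand of the gene, and end just before the annotated gene. Capitals mark GGGCGG on either strand, the core of the Sp1 site, and CACGTG, the palindromic E-box.
*Rnf32*, chr5:29195743-29195991, plus strand: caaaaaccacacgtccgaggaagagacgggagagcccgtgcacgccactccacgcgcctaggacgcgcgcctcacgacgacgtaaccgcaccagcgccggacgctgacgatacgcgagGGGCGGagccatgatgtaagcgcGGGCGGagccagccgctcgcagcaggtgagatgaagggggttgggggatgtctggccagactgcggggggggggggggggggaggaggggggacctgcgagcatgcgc
*Lmbr1*, chr5:29378391-29378640, minus strand: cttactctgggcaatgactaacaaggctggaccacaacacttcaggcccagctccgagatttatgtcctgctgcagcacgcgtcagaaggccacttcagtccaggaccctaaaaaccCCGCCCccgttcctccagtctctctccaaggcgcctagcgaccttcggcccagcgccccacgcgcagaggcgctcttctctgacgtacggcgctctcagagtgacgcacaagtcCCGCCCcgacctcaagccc
*Insig1*, chr5:28071162-28071362, plus strand: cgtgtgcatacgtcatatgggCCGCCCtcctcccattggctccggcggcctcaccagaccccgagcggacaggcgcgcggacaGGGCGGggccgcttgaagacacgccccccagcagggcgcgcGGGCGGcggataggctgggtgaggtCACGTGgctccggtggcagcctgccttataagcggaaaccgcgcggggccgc
Among 32851 RefSeq promoters, 32.7% hold GGGCGG on either strand in the 250 bases before the start, 6% hold CACGTG, 33.8% hold CCAAT and 12.4% hold TATAAA, the other 2 motifs searched. In those 250 bases *Rnf32* had 2 matches of GGGCGG and no other motif, and *Lmbr1* likewise had 2 of GGGCGG alone. *Insig1* had 3 of GGGCGG, 1 of CACGTG and 1 of CCAAT. The 3 windows held 29, 18 and 34 CpG dinucleotides for *Rnf32*, *Lmbr1* and *Insig1*, where the median promoter held 6. Such matches describe the sequence and are not sites shown to be bound. Of the 8 genes, 7 had an entry among these promoters, and *Shh* was the gene without one.

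*Lmbr1*, a membrane protein gene on the minus strand at chr5:29229802-29378390, converges on *Rnf32*, with 1344 bp between the annotated gene ends. It was at 2.21, 2.20, 2.07 and 1.98 in wild type, 2.06, 2.04, 2.25 and 2.30 in *Cilk1*-/- and 2.12, 2.12 and 2.26 in the compound mutant. The 3 genotypes overlapped throughout, and the log2 fold change in the compound mutant against wild type was 0.05 (standard error 0.0865, 95% interval −0.14 to 0.24, adjusted p = 0.743, limma). This interval does not reach a fold of 1.5 in either direction, whereas that of the adjoining *Rnf32* began at 0.55; the difference between the 2 genes was not tested.

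*Insig1*, whose product holds the SREBP escort SCAP in the endoplasmic reticulum and so limits cholesterol synthesis, starts 395.9 kb downstream of *Shh*, at chr5:28071363-28078662 on the plus strand. It was at 4.59, 4.58, 4.68 and 4.71 in wild type, 4.41, 4.44, 4.22 and 4.31 in *Cilk1*-/- and 4.40, 4.42 and 4.22 in the compound mutant. Every mutant library lay below every wild-type library, and the mutants overlapped each other. Libraries did not overlap in this direction for 10.7% of all genes in *Cilk1*-/- and 9.05% in the compound mutant against wild type.

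Against wild type, the log2 fold change of *Insig1* in *Cilk1*-/- amounted to −0.29 (standard error 0.0623, adjusted p = 0.0427, limma). That of the compound mutant was also −0.29 (standard error 0.0673, adjusted p = 0.0343, limma). Both correspond to 0.818 times the wild-type level, short of the fold of 1.5, so neither was called. At any fold, 2.44% and 6.58% of all genes passed an adjusted p of 0.05 in these comparisons, which share the wild-type libraries. The replicate block raised the adjusted p to 0.165 for *Cilk1*-/- and to 0.155 for the compound mutant (limma). With the label set as a term it was 0.0818 and 0.219 (limma). Leaving out any one wild-type library gave 0.0694 to 0.132 for *Cilk1*-/- and 0.0548 to 0.101 for the compound mutant (limma). With only the 2 genotypes in the fit it was 0.0118 and 0.106 (limma). Between the mutants the difference was 0.00 on the log2 scale, with a 95% interval of −0.15 to 0.15 (limma).

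*Rbm33*, which encodes an RNA-binding protein, is the nearest of the 7 neighbours, 150.1 kb downstream of *Shh* from start to start. It lay between 3.89 and 4.08 in wild type, between 4.07 and 4.23 in *Cilk1*-/- and between 3.93 and 4.18 in the compound mutant, and the genotypes overlapped. Its largest log2 fold change was 0.17 in *Cilk1*-/- against wild type (standard error 0.0613, adjusted p = 0.155, limma).

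Beyond *Lmbr1* lie *Nom1*, a nucleolar protein gene, *Ube3c*, a HECT-type ubiquitin ligase gene, and *Dnajb6*, which encodes an HSP40 co-chaperone, at 967.4, 1102.0 and 1268.4 kb from *Shh*. *Nom1* was at 3.27, 3.34 and 3.44 in the compound mutant against 3.41 to 3.56 in wild type and 3.41 to 3.59 in *Cilk1*-/-. Compound mutant replicates 1 and 2 lay below all 8 other libraries and replicate 3 among them. The log2 fold change was −0.15 against wild type (standard error 0.0569, adjusted p = 0.139, limma) and −0.15 against *Cilk1*-/- (adjusted p = 0.152, limma), and neither was called.

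*Ube3c* lay between 4.06 and 4.23 in all 11 libraries. Its log2 fold change against wild type was −0.08 in each mutant, with adjusted p = 0.239 in *Cilk1*-/- and 0.184 in the compound mutant (limma). *Dnajb6* was the most even of the 8, between 5.34 and 5.45, with log2 fold changes of 0.04, 0.02 and −0.01 in the 3 comparisons. Both genes overlapped between all genotypes.

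**Figure D4:**
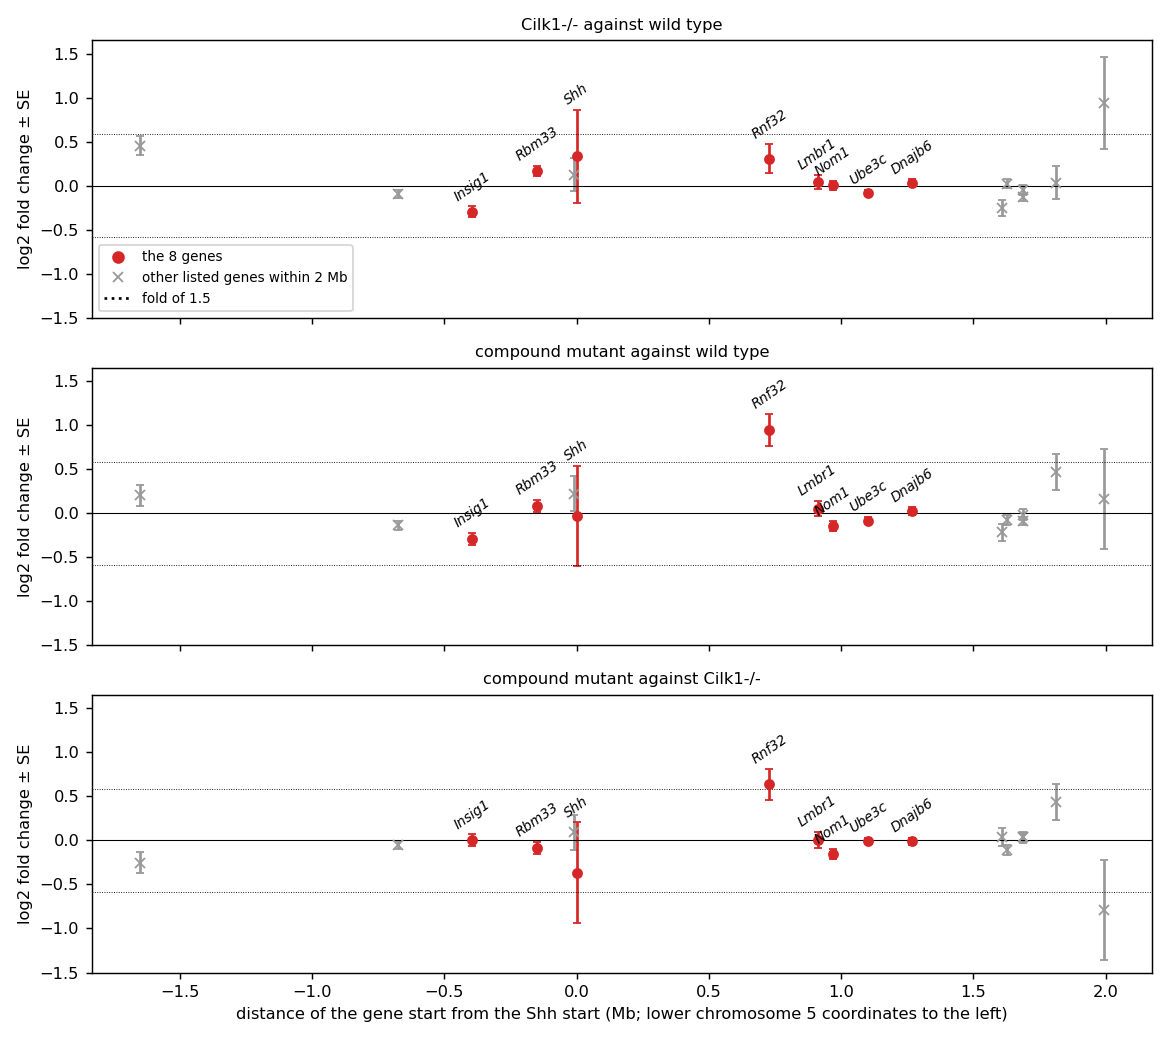
The log2 fold change ± standard error (limma, y axis) of the 8 genes (filled circles) and of 9 other listed genes (crosses) is plotted against the distance of the gene start from the *Shh* start (x axis, Mb), with 1 panel per comparison and dotted lines at a fold of 1.5. *Rnf32* at 0.94 is the one gene beyond the line with a call in the compound mutant against wild type, and the bars of *Shh* are several times longer than those of the other 7 genes.

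In all, 0 of the 8 genes were called in *Cilk1*-/- against wild type, 1 in the compound mutant against wild type and 0 in the compound mutant against *Cilk1*-/-. The shares of all genes called were 0.37%, 1.25% and 0.543%. At an unadjusted p under 0.05 the counts were 3, 4 and 2 of the 8 (limma), beside 20.7%, 26.7% and 23.2% of all genes. The median log2 fold change of the 8 was 0.04, 0.00 and −0.01 in these comparisons, beside 0.00 for all genes in each.

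Mean levels over the 11 libraries ordered the genes from *Dnajb6* (5.40) through *Shh* (4.87), *Insig1* (4.45), *Ube3c* (4.13), *Rbm33* (4.07), *Nom1* (3.46) and *Lmbr1* (2.15) to *Rnf32* (1.66). *Ube3c* and *Rbm33* overlapped across libraries, and so did *Lmbr1* and *Rnf32* through the compound mutant. The range of *Shh* alone covered the levels of *Dnajb6*, *Insig1*, *Ube3c* and *Rbm33*. Within the compound mutant, replicate 3 had the highest value of 7 of the 8 genes, all but *Insig1*, whereas it had the highest value for 30.0% of all genes, a count made after the values were seen.

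Of 58 other annotated genes that start within 2 Mb of *Shh*, 9 are listed, and 0 of them were called in any of the 3 comparisons, with 3, 2 and 0 at an unadjusted p under 0.05 (limma, beside the same shares of all genes). *9530036O11Rik*, a noncoding gene antisense to *Shh*, was at 0.08, 0.17 and 1.10 in compound mutant replicates 1 to 3, 0.11 to 0.34 in wild type and 0.26 to 0.49 in *Cilk1*-/-. It was thus highest in the library with the most *Shh*, and its exons share 446 of the 2847 exon bases of *Shh* on the opposite strand. Whether reads were counted by strand is not stated, so reads of the 2 genes cannot be told apart there. *Otof*, which encodes otoferlin of hair cell synapses and starts 1994.7 kb from *Shh*, was at 0.91, 0.80 and 3.17 in the compound mutant, 0.71 to 2.07 in wild type and 1.78 to 3.09 in *Cilk1*-/-. Its Pearson correlation with *Shh* over the 11 libraries was 0.891, and 0.875 without compound mutant replicate 3, compared with −0.409 to 0.546 for the 7 neighbours. For *Rnf32* that correlation was 0.367 over all libraries and −0.346 without compound mutant replicate 3, so the rise of *Rnf32* and the level of *Shh* did not run in parallel across the other 10 libraries.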

How the data were processed

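Maxillary molar tooth germs at E14.5 from 4 wild-type, 4 *Cilk1*-/- and 3 compound mutant samples were analysed, grouped by their labels. Per the labels and the study's methods, paired-end reads were mapped to mm10 with HISAT2 2.0.5 and counted with featureCounts 1.5.0-p3, and FPKM was computed from counts and gene length. The deposited values are log2 values by the authors for 16755 genes. An added 1 was inferred from the values, later steps are not stated in the sources used here, and 257 genes have values below 0, none of them among the 8 genes. Counts and depth are unknown, so precision rests on the spread between libraries. Which replicates came from separate litters is not stated, so p-values measure the spread between these samples, which may be technical.

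All genes were fitted together with limma 3.58.1 in R 4.3.3 (lmFit, eBayes with trend and robust, 3 genotypes, no covariate, Benjamini-Hochberg). The fit was tested on simulated data. Exact two-sided permutation tests, which shuffled libraries without regard to replicate number, were run on *Shh* and on *Shh* minus marker means. Every one of the 8 genes was named in every library, with all listed genes within 2 Mb, *Cilk1*, the 5 genes most correlated with *Shh*, and *Ihh*, *Dhh*, *Ptch1*, *Gli1* and called genes of the pathway lists. The members and lists were chosen with earlier results of these data known. Alternatives were a replicate block, the label set as a term, fits of 2 genotypes, other filters, pseudocounts and scalings, and leaving out each library. A block placing the compound mutant with pair 4 was added after seeing the data. Same-numbered wild-type and *Cilk1*-/- libraries had correlated deviations (−0.74, −0.89, −0.85 and −0.79), while correlations of the compound mutant libraries with those of their number lay between −0.12 and 0.26. Plots were drawn with Python 3.11.15 and matplotlib 3.10.9.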

Additional observations from a re-analysis of the deposited data

Results flagged for a closer look

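Among 18 groups of 4 libraries tested for a single distant value, 1 was flagged. Chance flags about 1 in 20 independent groups, but the opposed deviations of same-numbered libraries tie the wild-type and *Cilk1*-/- groups together. *Dnajb6* in *Cilk1*-/- replicate 3 was at 5.35, below the other 3 *Cilk1*-/- libraries at 5.44, a gap of under 0.1 on the log2 scale. Wild-type replicate 3 lay the opposite way, at 5.45 against 5.34 to 5.36 in the other wild-type libraries, and was not flagged. Groups of 3, which the compound mutant forms, were not tested, so the *Shh* level of compound mutant replicate 3 had no such test.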

How the results depend on the processing

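The number of the 8 genes called in the compound mutant against wild type was 1, and it was 0 with the replicate number as a block, 0 with that block placing the compound mutant with pair 4 (chosen after seeing the data), 0 with the label set as a term and 0 with only the 2 genotypes in the fit. Leaving out single libraries gave 0 to 1, with 0 without wild-type replicate 2 and without wild-type replicate 4. Against *Cilk1*-/-, leaving out single libraries also gave 0 to 1, with *Rnf32* called without compound mutant replicate 2 (0.80, adjusted p = 0.0254, limma) and *Shh* without compound mutant replicate 3, where its log2 fold change ranged over −1.26 to 0.17. The range for *Shh* was −0.92 to 0.51 in the compound mutant against wild type and 0.14 to 0.47 in *Cilk1*-/- against wild type, with no call. *Shh* relative to the epithelial genes ranged over 0.06 to 0.35, −0.56 to 0.57 and −0.80 to 0.33 in *Cilk1*-/- against wild type, the compound mutant against wild type and the compound mutant against *Cilk1*-/-. *Rnf32* in the compound mutant against wild type was 0.97 (adjusted p = 0.608, limma) in the block with pair 4. The replicate block gave *Shh* values of 0.33, −0.04 and −0.37 and changed no other call of the 8 genes. The alternatives were tallied over gene values, *Shh* relative to the epithelial genes and counts of called genes together. In that tally 654 entries were unchanged, 26 weaker and 8 stronger, and no called value changed sign. An unchanged gene value kept its side of the threshold, whereas an unchanged count could shift slightly, as from 3 to 4 for the pathway lists. The 26 weaker entries were *Rnf32* in the compound mutant against wild type, the same losses counted again among the 8 genes, and pathway list counts. Among those 654, 26 values that were not called had the opposite sign, 4 of them for *Shh* in the compound mutant against wild type and 1 against *Cilk1*-/-. The cause was not tested. Genes of the 3 pathway lists called in the compound mutant against *Cilk1*-/- numbered 0, but 2 without compound mutant replicate 2 and 3 without replicate 3. Depth is unknown, so what it limits could not be stated, and low genes such as *Rnf32* rest on the spread between 3 and 4 libraries alone.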
